A study of Mus musculus with 8 samples.

Results

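Interferon regulatory factors (IRF) are transcription factors that share a DNA-binding domain and control interferon genes and the genes induced by interferons. Here, 7 of them (Irf1, Irf2, Irf3, Irf5, Irf7, Irf8, and Irf9) were followed in 4 types of CD4 T cells. The members were taken by their gene name in the array files, which hold 29924 gene names in all, and other genes of the family were not analysed here. Each gene was read from its brightest probe, and all 7 passed the filter on dim signals because the scanner software scored their probes as well above background on all 8 arrays.

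The cells came from peripheral lymph nodes (pLN) of B6.Cg-Foxp3<tm1Mal> mice, aged 8 to 14 weeks and of both sexes, in which Foxp3 expressing cells carry GFP. All mice were immunized s.c. with keyhole limpet hemocyanin (KLH) in alum, so the naïve CD4 T cells also derived from immunized animals and no array of unimmunized mice is part of the comparison. At d12 and d25 p.i. the nodes of 8 to 15 mice were pooled and sorted into naïve CD4 T cells (GFP-, PD1 low, GL7-), follicular helper T (TFH) cells (GFP-, PD1 high, GL7+), regulatory T (Treg) cells (GFP+, PD1 low, GL7-), and follicular regulatory T (TFR) cells (GFP+, PD1 high, GL7+ or GL7-). Each pool gave 25 ng of RNA for 1 one-color array, which leaves 2 arrays for every cell type, 1 from each day. Per the design text these nodes were studied in 3 independent experiments at d12 and 2 at d25, so the arrays analysed here are a subset. Within a day, nothing in the labels states that the pools of different cell types came from different mice. The p-values given here measure the spread between these arrays after a shift common to each day, and this spread may be partly technical.

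Among the members, Irf3 and Irf7 rest in the cytosol until sensors of foreign nucleic acid lead to their phosphorylation, and they then switch on type I interferon genes. Irf5 is activated downstream of Toll-like receptors through Myd88 and is best known from myeloid and B cells. Irf9 is the DNA-binding part of a complex that carries the signal of the type I interferon receptor to the interferon-stimulated response element (ISRE). Irf1 is induced by interferon-γ, whose signal acts at the GAS element, whereas Irf2 can occupy the same sites as Irf1 and antagonize it. Irf8 is largely restricted to hematopoietic cells and is known from myeloid, dendritic, and germinal center (GC) B cells, where it binds composite elements together with Ets factors.

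To place the members in this circuit, their promoters were searched for 3 motifs on both strands. These were the ISRE core (GAAA, 2 free bases, GAAA), the composite of an Ets and an IRF site (GGAA, 2 free bases, GAAA), and the GAS element (TTCNNNGAA). The RefSeq table of build GRCm38.p6 held 10 windows for the 7 members, each of 300 bases from 250 before to 50 after an annotated start. Matches lay in the windows of Irf1, Irf2, and Irf8, given here on the plus strand from 5′ to 3′ with the matched bases in capitals. They are matches of letters only, and whether any factor binds there was not tested.
Irf1, chr11:53769904-53769952: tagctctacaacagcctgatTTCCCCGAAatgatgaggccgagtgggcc
Irf8, chr8:120736167-120736233: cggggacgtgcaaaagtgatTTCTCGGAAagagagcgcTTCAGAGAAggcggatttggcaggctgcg
Irf2, chr8:46739495-46739549: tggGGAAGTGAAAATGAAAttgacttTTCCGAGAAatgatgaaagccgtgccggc

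The Irf1 window held 1 GAS match at -90 to -82 from the start, and that of Irf8 held 2 at -171 to -163 and at -153 to -145. The Irf2 window held all 3 motifs, namely the composite at -247 to -238, the ISRE core at -241 to -232, which overlaps it, and a GAS match at -224 to -216. Irf1 and Irf8 each had a further window without a match. None of the 3 patterns was found in the windows of Irf3, Irf5, Irf7, or Irf9, which says only that these letters are not in those 300 bases. Over all 32851 windows of the table, the GAS pattern was found in 8.3%, the ISRE core in 3.44%, and the composite in 2.72%.

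Each array carries 39429 probes, of which 18254 to 19867 were brighter than the background threshold. Values are normalized intensities in relative units (RU), and since each probe binds with its own strength, RU are compared between cell types for 1 gene and not between genes. The sort markers followed the gates, as Foxp3 was at 37266 to 49260 RU on the Treg and TFR arrays and at 65.5 to 358 RU on the others. Pdcd1, which encodes PD1, was at 87318 RU or more on the TFH and TFR arrays and at 4625 RU or less on the rest. The T cell markers Cd3d, Cd3e, Cd3g, Cd4, and Cd28 were well above background on all 8 arrays.

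The GC is rich in B cells, and Irf5 and Irf8 are also genes of B and myeloid cells, so markers of such cells and of other cell types were read on the same arrays. Among 11 B cell markers, Pax5 was well above background on none of the 8 arrays. The summed level of these markers was 6311 to 8455 RU in naïve CD4 T cells, 8328 to 18633 RU in TFH cells, 10163 to 10511 RU in Treg cells, and 7986 to 9212 RU in TFR cells. The high value belongs to the TFH array of d25, on which Ms4a1 (CD20) was at 2737 RU and Cd79a at 1821 RU. The markers did not move together. Cd22, an inhibitory receptor of B cells, was the only one called between TFH and naïve cells (1.60 ± 0.13, adjusted p = 0.00101) and between TFR and Treg cells (0.72 ± 0.13, adjusted p = 0.0137). It had 2039 and 1266 RU on the naïve arrays of d12 and d25, 6016 and 3954 RU on the TFH arrays, 2196 and 1084 RU on the Treg arrays, and 3153 and 2047 RU on the TFR arrays. Ms4a1 and Cd79a, in contrast, were below the naïve array on the TFH array of d12, at 246 RU against 1142 RU and at 255 RU against 688 RU. Compared with the naïve array of the same day, 1 of the 11 markers was higher and 0 were lower at both days in TFH cells, 1 was higher and 6 were lower in Treg cells, and 3 were higher and 6 were lower in TFR cells. Of 12 myeloid and dendritic cell markers, Cd14, Fcgr1, Adgre1, Xcr1, and Clec9a were well above background on no array, and the summed level was 21565 to 30613 RU in naïve CD4 T cells, 18945 to 27463 RU in TFH cells, 18660 to 22750 RU in Treg cells, and 17853 to 23828 RU in TFR cells. Most of that sum is Itgam (13020 to 28500 RU), and without it the sum was 1929 to 2113 RU in naïve CD4 T cells, 5925 to 6277 RU in TFH cells, 1367 to 1567 RU in Treg cells, and 3893 to 4252 RU in TFR cells. The difference lies mainly in Cd68, which was higher on all 4 TFH and TFR arrays (2334 to 5098 RU) than on the naïve and Treg arrays (368 to 564 RU). The plasmacytoid dendritic cell markers Siglech, Tcf4, and Pacsin1 passed the background threshold on all 8 arrays, with Siglech at its highest in naïve CD4 T cells (70158 and 82571 RU). Tcf4 was higher in TFH than in naïve cells by 0.79 ± 0.20 (adjusted p = 0.0298) and in TFR than in Treg cells by 0.94 ± 0.20 (adjusted p = 0.0222), at 332 to 566 RU on the follicular arrays, 257 and 327 RU on the naïve arrays, and 191 and 208 RU on the Treg arrays. The probes of Itgam, Siglech, and Pacsin1 were bright on all 8 arrays of sorted T cells, and whether they read these transcripts alone was not tested. Of 4 CD8 T and NK cell markers, Klrb1c was called higher in TFH than in naïve cells (4.10 ± 0.54, adjusted p = 0.00397). It was also higher in TFR than in Treg cells (3.92 ± 0.54, adjusted p = 0.00622). Cd8b1 was called lower in both comparisons and Cd8a in the second, and Ncr1 was well above background on no array. Of 3 antibody-secreting cell markers, Jchain ranged from 417 to 7465 RU, while Sdc1 passed the background threshold on 1 array and Tnfrsf17 on none.

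The first question was how the family differs between TFH cells and the naïve CD4 T cells of the same nodes. Irf8 and Irf5 were higher in TFH cells by 3.23-fold and 3.49-fold, whereas Irf1, Irf7, and Irf9 were lower by 1.56-fold, 2.0-fold, and 1.92-fold. Irf2 and Irf3 did not pass the test. Thus 5 of the 7 members were called at an adjusted p below 0.05, 2 of them higher and 3 lower. Of all 15747 genes tested, 46.7% were called in this comparison, 21% higher and 25.7% lower.

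Irf8 was read by a probe at chr8:123280324-123280383 of build NCBI37, the build of the array files. On the d12 and d25 arrays, respectively, naïve cells had 1141 and 1106 RU, TFH cells 3458 and 3807 RU, Treg cells 1980 and 2533 RU, and TFR cells 4206 and 3859 RU. The naïve arrays were lowest, the Treg arrays between, and the follicular arrays highest. TFR and TFH cells were not separated by the limma test (0.15 ± 0.14, adjusted p = 0.487). How many of all genes keep their arrays apart in this way was not counted. Between TFH and naïve cells the log2 difference was 1.69 ± 0.14 (SE, n = 2 arrays per cell type, adjusted p = 0.00106), and it was 1.60 at d12 and 1.78 at d25, each within 1 slide. Without the TFH array of d25, which had the high B cell markers, it was 1.65 ± 0.19 (adjusted p = 0.00925). Like Irf8, the markers Cd68, Cd22, Tcf4, and Klrb1c were above the naïve and Treg arrays of the same day on all follicular arrays. Itgam, Csf1r, Siglech, Cd8a, and Cd8b1 went the other way, with each follicular array below the naïve array of its day. Unlike Irf8, Cd22 and Cd68 were called lower in TFR than in TFH cells by the limma test. Their log2 differences were -0.94 ± 0.13 (adjusted p = 0.0108) and -0.76 ± 0.16 (adjusted p = 0.033). Tcf4 and Klrb1c, like Irf8, were not called in that comparison. Their TFR arrays were below the TFH arrays of the same day. On the Treg arrays, where Irf8 exceeded the naïve arrays, Cd68 was lower (368 and 394 RU against 551 and 564 RU), whereas the B cell marker Cd79b was higher (7082 and 7547 RU against 3223 and 2420 RU). In bulk samples, a change in the number of cells that contain a transcript and a change of its amount per cell cannot be told apart. The part of other cell types in the levels of Irf8 and Irf5 was not tested.

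Irf5 (probe at chr6:29486901-29486960, build NCBI37) was the dimmest in naïve CD4 T cells, with 296 RU at d12 and 183 RU at d25. TFH cells had 820 and 807 RU, Treg cells 619 and 765 RU, and TFR cells 2341 and 2739 RU. Its highest and lowest arrays were 14.9-fold apart, the widest range among the 7 members, and both TFR arrays stood above all others. Such an order was not counted over all genes. The log2 difference between TFH and naïve cells was 1.80 ± 0.26 (adjusted p = 0.00553), or 1.47 at d12 and 2.14 at d25. The naïve arrays differed more from each other (SD 0.49 on the log2 scale) than the TFH arrays (SD 0.02). Without the TFH array of d25 the difference was 1.79 ± 0.38 (adjusted p = 0.0323). In TFR cells, where Irf5 was highest, the B cell markers differed in direction. Cd79a (124 and 255 RU) and Ms4a1 (65.4 and 307 RU) were below the naïve arrays of the same day, whereas Cd79b (4284 and 5961 RU) and Cd22 were above them. Of all 11 B cell markers, 3 were higher and 6 lower in TFR than in naïve cells at both days. Against TFH cells, 0 were higher and 5 lower at both days.

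**Figure D1:**
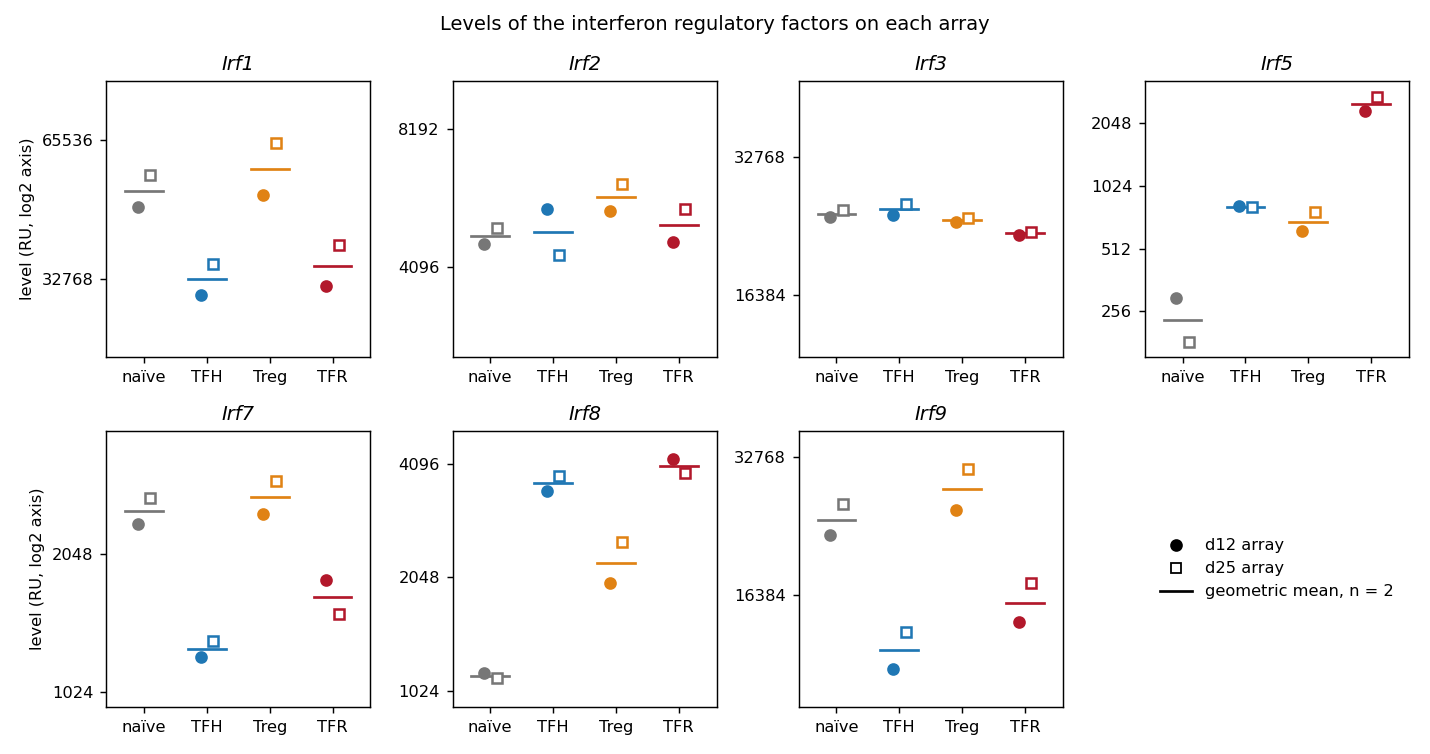
Levels of the 7 interferon regulatory factors in relative units (RU, log2 axis) on each array of the 4 cell types. Filled circles are d12 arrays, open squares d25 arrays, and bars the geometric mean of both. Irf5 is highest in TFR cells. Irf8 is highest in TFR and TFH cells, which the limma test did not separate (adjusted p = 0.487). Irf1, Irf7, and Irf9 are lower on all TFH and TFR arrays than on all naïve and Treg arrays. How many of all genes split in these ways was not counted.

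**Figure D2:**
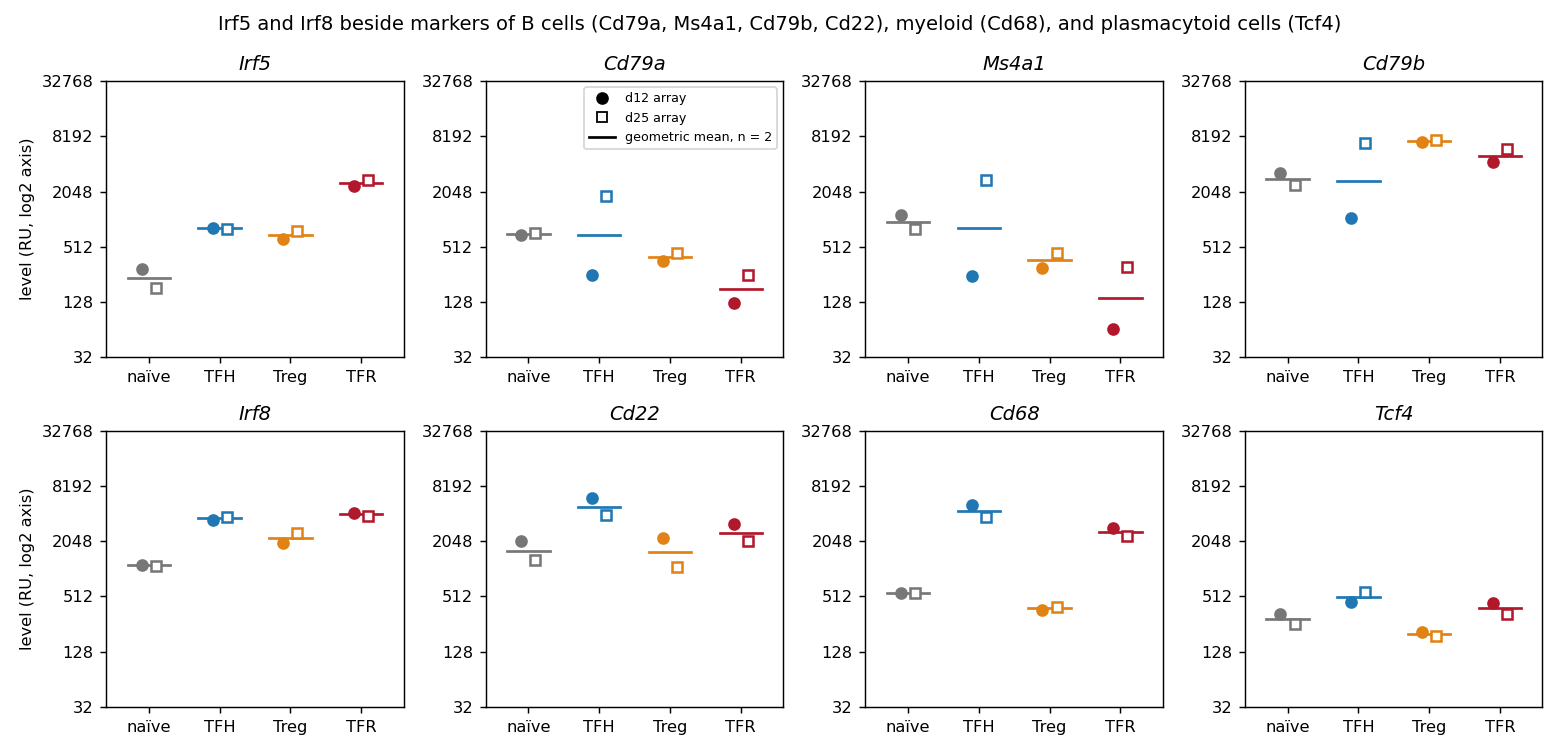
Irf5 and Irf8 beside the B cell markers Cd79a, Ms4a1, Cd79b, and Cd22, the myeloid marker Cd68, and the plasmacytoid dendritic cell marker Tcf4, in RU on a shared log2 axis, with d12 arrays as filled circles, d25 arrays as open squares, and bars at the geometric mean of both. Cd79a and Ms4a1 peak on the TFH array of d25, Cd22 on that of d12, and Cd79b on the Treg array of d25, while Cd22, Cd68, and Tcf4 are higher on the TFH and TFR arrays than on the naïve and Treg arrays of the same day; Ms4a1 on the TFR array of d12 was not well above background.

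The other group of members behaved the opposite way. Irf9 (chr14:56228806-56228865, build NCBI37) gave 22150 and 25893 RU on the naïve arrays of d12 and d25, 11345 and 13648 RU on those of TFH, 25200 and 30893 RU on those of Treg, and 14361 and 17393 RU on those of TFR cells. All follicular arrays were below all naïve and Treg arrays, a split that was not counted over all genes. The log2 difference between TFH and naïve cells was -0.94 ± 0.08 (adjusted p = 0.00106), with -0.97 at d12 and -0.92 at d25.

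Irf7, which amplifies the type I interferon response once it is induced, had 2382 and 2712 RU on the naïve arrays, 1221 and 1323 RU on the TFH arrays, 2507 and 2960 RU on the Treg arrays, and 1800 and 1517 RU on the TFR arrays. Its probe has 60 bases but spans 351 bases of the genome (chr7:148450664-148451014 on the minus strand, build NCBI37), that is, it crosses a splice junction. The log2 difference between TFH and naïve cells was -1.0 ± 0.14 (adjusted p = 0.00538), and the values of the days were -0.96 and -1.04.

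Irf1 (chr11:53590746-53590805, build NCBI37) had 47011 and 55219 RU on the naïve arrays, 30165 and 35334 RU on the TFH arrays, 49824 and 64626 RU on the Treg arrays, and 31527 and 38796 RU on the TFR arrays. The groups split in the same way as for Irf9 and Irf7, and how many of all genes do so was not counted. The log2 difference between TFH and naïve cells was -0.64 ± 0.09 (adjusted p = 0.00432), and it was -0.64 at both days. A second Irf1 probe, which is assigned to another transcript in the files (NM_001159393), stayed at the floor of 20 RU on all 8 arrays. Averaging both probes therefore reduced the difference to -0.32.

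Irf2 and Irf3 were nearly level over the 4 cell types. Irf3 varied by no more than 1.17-fold over all arrays, from 22164 RU on a TFR array to 25881 RU on a TFH array. Its log2 difference between TFH and naïve cells was 0.03 ± 0.08 (adjusted p = 0.781), with a 95% interval from -0.17 to 0.23. Irf2 ranged from 4359 to 6233 RU, and the TFH arrays held both a high value at d12 (5484 RU) and the lowest of all at d25 (4359 RU). Its log2 difference of 0.03 ± 0.16 (adjusted p = 0.907) had a wider interval, from -0.40 to 0.45, so a modest change in either direction lies within the error.

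In the next comparison, TFR cells were set against Treg cells, the Foxp3+ cells sorted as PD1 low and GL7-. The same 5 members were called with the same signs, Irf5 and Irf8 higher by 3.68-fold and 1.80-fold, and Irf1, Irf7, and Irf9 lower by 1.62-fold, 1.65-fold, and 1.77-fold. Over all genes, 39.8% were called, 18.8% higher and 21% lower. The log2 difference of Irf5 was 1.88 ± 0.26 (adjusted p = 0.00661), with 1.92 at d12 and 1.84 at d25. That of Irf8 was 0.85 ± 0.14 (adjusted p = 0.0106), but it was 1.09 at d12 and 0.61 at d25, as the Treg array was higher and the TFR array lower at d25 than at d12. Irf9 differed by -0.82 ± 0.08 (adjusted p = 0.00267) and Irf1 by -0.70 ± 0.09 (adjusted p = 0.00481), each by nearly the same amount at both days. Irf7 differed by -0.72 ± 0.14 (adjusted p = 0.0176), with -0.48 at d12 and -0.96 at d25. Irf2 and Irf3 had log2 differences of -0.20 ± 0.16 and -0.10 ± 0.08 (adjusted p = 0.375 and 0.381). The call for Irf5 was lost without the TFR array of d25 (adjusted p = 0.0575). That for Irf7 was lost without the TFR array of d25 or either Treg array (up to 0.105), and that for Irf8 without the d12 array of TFR or Treg cells (up to 0.0746).

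**Figure D3:**
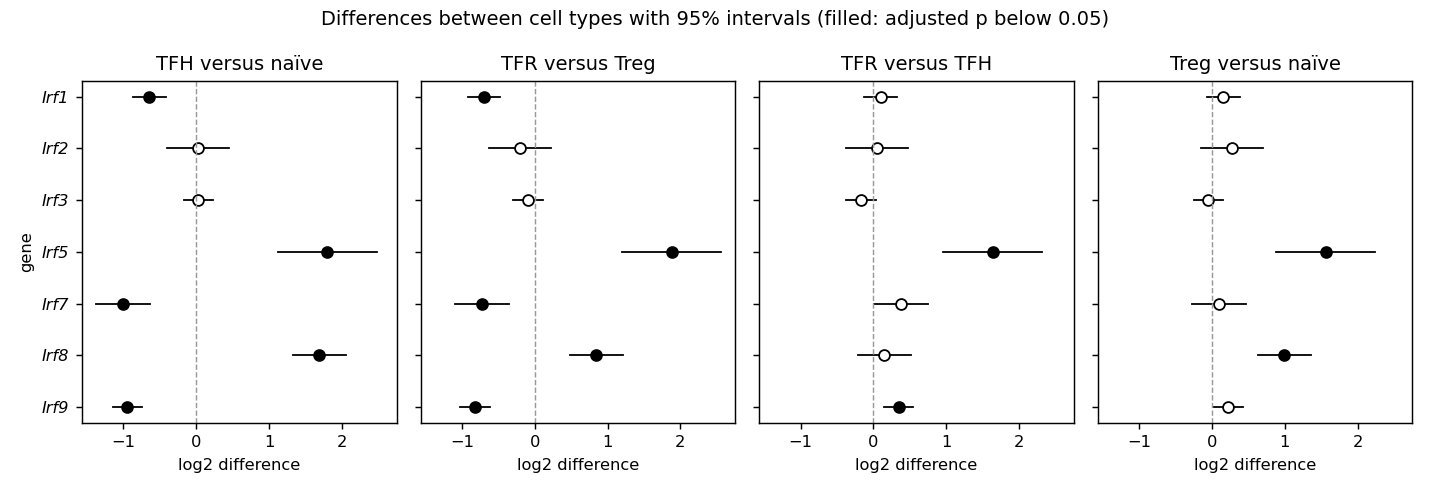
Log2 differences of the 7 members between cell types, with bars for the 95% interval of the limma fit (n = 2 arrays per cell type). Filled points were called at an adjusted p below 0.05: 5 members for TFH versus naïve CD4 T cells, 5 for TFR versus Treg cells, 2 for TFR versus TFH cells, and 2 for Treg versus naïve CD4 T cells.

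Whether the follicular change differs between Foxp3+ and Foxp3- cells was tested directly, as the difference between TFR and Treg cells minus that between TFH and naïve CD4 T cells. Since TFH cells were sorted as GL7+ and TFR cells as GL7+ or GL7-, Foxp3 and the GL7 gate cannot be told apart in this test. None of the 7 members was called, against 8.52% of all genes. Irf8 came closest with a log2 value of -0.84 ± 0.20 (adjusted p = 0.0731), that is, its rise was smaller in the Foxp3+ cells at d12 (-0.51) and at d25 (-1.18). It was called when the prior variance was allowed to follow intensity (adjusted p = 0.0432). For the other 6 members the adjusted p lay between 0.462 and 0.925. The unadjusted p of Irf8 was 0.00857 and the only one of the 7 under 0.05.

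Both follicular cell types were then compared with each other, and here too the gates differed in GL7 as well as in Foxp3. Irf5 was 3.11-fold higher in TFR than in TFH cells, with a log2 difference of 1.64 ± 0.26 (adjusted p = 0.0153) that was 1.51 at d12 and 1.76 at d25. Irf9 was 1.27-fold higher, with 0.34 ± 0.08 (adjusted p = 0.0394) and 0.34 and 0.35 at the days. These 2 calls, both higher, stand against 22.2% of all genes called, 11.7% higher. For Irf7 the difference was 0.38 ± 0.14 (adjusted p = 0.128), and both TFR arrays were above both TFH arrays, which was not counted over all genes. Irf8 differed by 0.15 ± 0.14 (adjusted p = 0.487), with a 95% interval from -0.21 to 0.52. The values for Irf1, Irf2, and Irf3 were 0.10, 0.05, and -0.17 (adjusted p = 0.457, 0.859, and 0.184). At d25 the TFR and TFH arrays were on different slides, so only the d12 difference is free of a slide step. With slide in place of day in the fit, neither call held, and the log2 differences were 1.33 for Irf5 (adjusted p = 0.0554) and 0.33 for Irf9 (adjusted p = 0.162). The call for Irf5 was also lost on leaving out any 1 of the 4 TFH and TFR arrays (adjusted p up to 0.11), and that for Irf9 on leaving out any 1 of the 8 arrays (up to 0.18).

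Treg cells differed from naïve CD4 T cells in 2 members, both higher, while 9.89% of all genes were called, 5.91% higher. Irf5 was 2.95-fold higher (log2 difference 1.56 ± 0.26, adjusted p = 0.0285) and Irf8 1.99-fold higher (1.00 ± 0.14, adjusted p = 0.0183). The Irf5 values of the days were 1.06 and 2.06, those of Irf8 0.80 and 1.20. The remaining members had log2 differences of 0.22 ± 0.08 for Irf9 (adjusted p = 0.158), 0.28 for Irf2, 0.16 for Irf1, 0.10 for Irf7, and -0.05 for Irf3 (adjusted p between 0.324 and 0.751). Again the d25 arrays of both cell types lay on different slides, and with slide in place of day neither Irf5 (1.25, adjusted p = 0.0989) nor Irf8 (0.96, adjusted p = 0.111) was called. Leaving out 1 array ended the call for Irf5 unless it was the naïve array of d12 (adjusted p up to 0.174), and that for Irf8 where it was a naïve or Treg array (up to 0.11).

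Arranged by mean level, Irf5 ran from TFR through TFH and Treg to naïve CD4 T cells, and only its TFH and Treg levels did not differ beyond their spread (0.24 ± 0.26, adjusted p = 0.502). Irf8 had the same order, but here TFR and TFH cells were the pair that was not separated, whereas TFH exceeded Treg cells by 0.70 ± 0.14 (adjusted p = 0.0172, in a comparison with 39.9% of all genes called). Irf1, Irf7, and Irf9 all ran from Treg through naïve CD4 T and TFR to TFH cells. The step from naïve CD4 T to TFR cells, a comparison in which 53.2% of all genes were called, passed the test for each of them, with log2 differences of 0.54, 0.62, and 0.60 (adjusted p = 0.00646, 0.0199, and 0.00366). With slide in place of day, those of Irf1 and Irf9 held (adjusted p = 0.026 and 0.0234), whereas that of Irf7 (0.0945) and the step of Irf8 from TFH to Treg cells (0.0688) did not. Of the 21 neighbour steps in the 7 orders, 8 were called, and none of these was a step of Irf2 or Irf3. Such steps were not counted over all genes, and the comparisons they come from called 9.89% to 53.2% of all genes. With slide in place of day, the called steps of Irf5 were also lost (adjusted p = 0.0554 and 0.0989). So were those of Irf8 from Treg to naïve CD4 T cells (0.111) and of Irf9 from TFR to TFH cells (0.162).

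The levels at d25 and d12 were compared over all 4 cell types. No member was called, and only 0.0699% of all genes were. Irf1 and Irf9 were higher at d25 in all 4 cell types, by 0.23 to 0.38 and by 0.23 to 0.29 on the log2 scale, with means of 0.28 ± 0.06 (adjusted p = 0.0833) and 0.27 ± 0.06 (adjusted p = 0.082). Irf3 was also higher in all 4, but by no more than 0.08. Irf5 fell by 0.69 on the naïve arrays and rose by 0.31 and 0.23 on those of Treg and TFR cells. The unadjusted p was 0.00584 for Irf1 and 0.00533 for Irf9, the only ones under 0.05, and both were called when the prior variance followed intensity. Since no slide carried arrays of both days, day and slide cannot be told apart.

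Genes around the family were taken as 5 lists by role. Of 18 genes of upstream sensing and activation, 17 were tested, and in TFH versus naïve CD4 T cells 6 were called higher and 5 lower (64.7%, against 46.7% of all genes). The median log2 difference was 0.32, against -0.07 over all genes. Among them, Unc93b1, the chaperone that carries nucleic acid sensing Toll-like receptors to endosomes, rose by 1.94 ± 0.16 on the log2 scale, and the DNA receptor Tlr9 by 1.35 ± 0.15. Mb21d1, which encodes the cytosolic DNA sensor cGAS, fell by 1.96 ± 0.34 and the adaptor ubiquitin ligase Traf6 fell by 1.20 ± 0.17. In TFR versus Treg cells, 2 genes of the list were called higher and 4 lower (35.3%, against 39.8%), with Unc93b1 (1.02 ± 0.16) and the RNA sensor Ifih1 (0.65 ± 0.09) on the one side and Traf6 (-0.82 ± 0.17) and the RNA sensor Ddx58 (-0.81 ± 0.11) on the other. Tlr9 had 5619 and 6915 RU on the TFH arrays, but 1940 and 1969 RU on the TFR arrays, a log2 difference of -1.67 ± 0.15 (adjusted p = 0.00304).

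All 9 genes of the interferon receptors and their Janus kinases and Stat proteins were tested. In TFH versus naïve CD4 T cells, 2 were called higher and 4 lower (66.7%, against 46.7% of all genes), and in TFR versus Treg cells 1 higher and 6 lower (77.8%, against 39.8%). Both chains of the interferon-γ receptor were lower in the follicular cells. Ifngr2 fell by 2.35 ± 0.19 in TFH cells and fell by 1.85 ± 0.19 in TFR cells, from 6000 to 7430 RU on the naïve and Treg arrays to 1117 to 1754 RU on the follicular arrays. Ifngr1 fell by 1.08 ± 0.15 and fell by 1.33 ± 0.15, respectively. By contrast, Jak2, a kinase of that receptor, rose by 1.63 ± 0.10 in TFH and by 0.64 ± 0.10 in TFR cells, and the type I receptor chain Ifnar2 rose by 0.91 ± 0.11 in TFH cells. The other chain, Ifnar1, differed by -0.89 ± 0.15 between TFH and naïve cells (adjusted p = 0.00898) and by -0.81 ± 0.15 between TFR and Treg cells (adjusted p = 0.0146). Stat2, the partner of Irf9, was higher in TFR than in TFH cells by 0.47 ± 0.10 (adjusted p = 0.0335), beside the 0.34 of Irf9 itself.

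Interferon-stimulated genes with an ISRE are the direct targets of the complex that holds Irf9. Of 23 such genes, 22 were tested, and between TFH and naïve CD4 T cells 1 was called higher and 14 lower (68.2%, against 46.7% of all genes), with a median log2 difference of -1.01. Usp18, a brake on the type I interferon receptor, fell by 2.49 ± 0.25, and Ifit2, an antiviral RNA-binding protein, fell by 2.45 ± 0.17. Mx1 was the exception among the called genes and rose by 1.46 ± 0.13, from 104 and 141 RU to 309 and 361 RU. In TFR versus Treg cells 2 were called higher and 8 lower (45.5%, against 39.8%), and the median was -0.33. Usp18 (-1.76 ± 0.25) and Ifit2 (-1.68 ± 0.17) fell again, while Oas1a and Eif2ak2, both activated by double-stranded RNA, rose by 1.18 ± 0.31 and 0.96 ± 0.26. In the direct comparison of TFR with TFH cells, 10 of the 22 were called higher in TFR cells and 0 lower (45.5%, against 22.2% of all genes), led by Eif2ak2 (1.74 ± 0.26) and Ifit3. The counts include Oas2 (lower in TFH and in TFR cells) and Ifi44 (lower in TFH cells, and higher in TFR than in TFH cells), which were dim on the lower side. Ifit3 had 8386 and 7423 RU on the naïve arrays, 1544 and 1650 RU on the TFH arrays, 8864 and 8964 RU on the Treg arrays, and 4295 and 4261 RU on the TFR arrays. The test of the difference between both follicular changes called 5 of the 22, 4 of them in favor of the Foxp3+ cells, that is, less negative or more positive there (22.7%, against 8.52%), with Ifit3 at 1.25 ± 0.14 and the virion tether Bst2 at 1.07 ± 0.15. Ifi44 (2.18 ± 0.37) is also among these 4, but it was not well above background on every array. Over the 19 alternative settings, 10 to 17 genes of this list were called between TFH and naïve cells, 4 to 13 between TFR and Treg cells, and 4 to 15 between TFR and TFH cells.

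**Figure D4:**
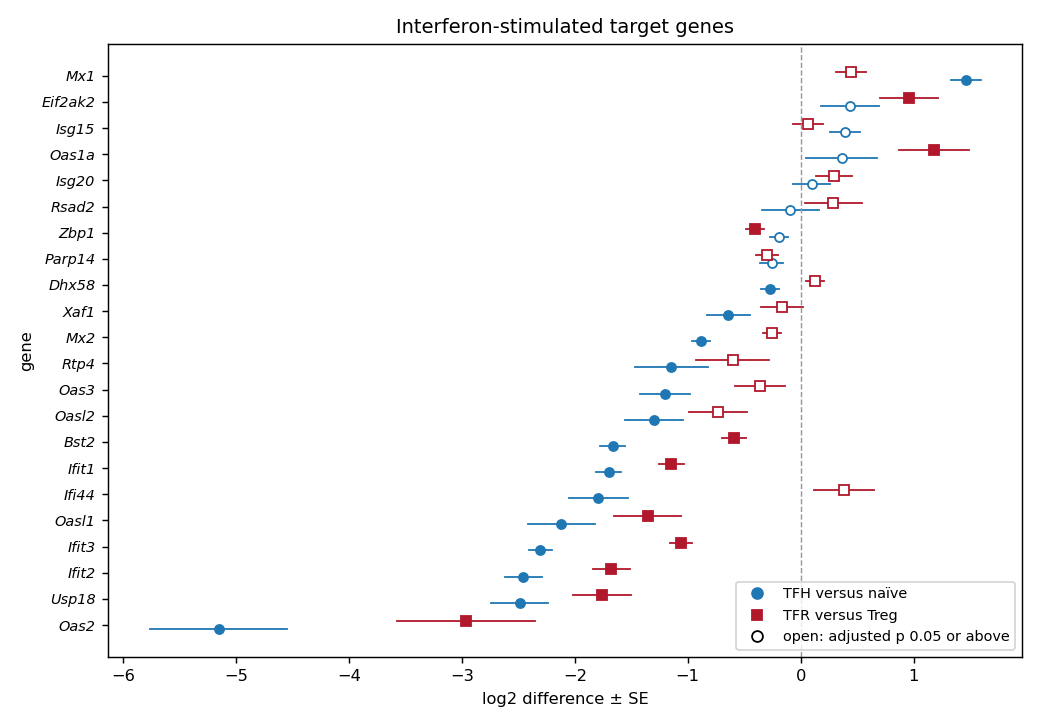
Log2 differences ± SE of the 22 tested interferon-stimulated genes in TFH versus naïve CD4 T cells (circles) and TFR versus Treg cells (squares), with filled symbols for an adjusted p below 0.05. In the first comparison 14 were called lower and 1 higher, in the second 8 lower and 2 higher; Oas2 in both comparisons and Ifi44 in the first were not well above background on every array compared, so these plotted values are not fold changes between measured levels.

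The genes of antigen processing and the interferon-inducible GTPases, many of which depend on Irf1, were all tested (21 genes). In TFH versus naïve CD4 T cells 2 were called higher and 8 lower (47.6%), near the share of all genes. In TFR versus Treg cells 1 was called higher and 13 lower (66.7%, against 39.8%), with a median of -0.53. In TFH cells the guanylate-binding proteins Gbp7 and Gbp6 differed by -2.65 ± 0.22 and -1.86 ± 0.26, and in TFR cells Gbp2 and the GTPase Igtp differed by -1.57 ± 0.10 and -1.27 ± 0.08. Casp1, the protease of the inflammasome, went the other way and rose by 3.83 ± 0.12 in TFH and by 1.94 ± 0.12 in TFR cells. Gbp3 separated the Foxp3+ from the Foxp3- cells. It was at 1486 to 1856 RU on the naïve and TFH arrays, at 9500 and 10410.2 RU in Treg cells, and at 5413 and 7258 RU in TFR cells. The log2 difference of Gbp3 between Treg and naïve cells was 2.62 ± 0.10 (adjusted p = 0.000902).

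Of 12 cofactors and regulators of the family, 10 were tested. Against naïve cells, TFH cells had 3 called higher and 3 lower (60%, with 46.7% over all genes), and against Treg cells, TFR cells had 2 higher and 3 lower (50%, with 39.8%). Batf, an AP-1 factor that binds composite elements with IRF proteins, rose by 2.12 ± 0.11 in TFH and by 2.11 ± 0.11 in TFR cells. Spib, an Ets factor that partners with Irf8 in B cells, was higher in TFH cells by 1.39 ± 0.21, at 550 and 798 RU against 256 and 250 RU in naïve CD4 T cells. In TFR cells Spib was at 93.3 and 130 RU, so that it did not accompany Irf8 there. Spib is itself a gene of B cells. It was above the naïve array of the same day on both TFH arrays, with its higher value on that of d25. The part of B cells in its level was not tested. The corepressors Irf2bp2 in TFH cells (-0.59 ± 0.13) and Irf2bp1 in TFR cells (-0.55 ± 0.08) were lower.

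In Treg versus naïve CD4 T cells the genes called were 2 of 17 upstream genes, 1 of 9 receptor and Jak-Stat genes, 1 of 22 ISRE genes (Mx1, 1.21 ± 0.13), 5 of 21 antigen processing and GTPase genes (23.8%), and 1 of 10 cofactors (Spib, which was lower and not well above background on every Treg array), against 9.89% of all genes. Over the alternative settings these counts ranged from 0 to 4, 0 to 3, 0 to 5, 2 to 10, and 0 to 1.

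The members were finally compared by the shape of their profile, as the root mean square (RMS) difference of their log2 values over the 8 arrays after each gene was centered on its own mean. Irf1 and Irf9 were 0.14 apart, Irf7 and Irf9 0.14, and Irf1 and Irf7 0.20, whereas Irf5 and Irf8 were 0.66 apart. Over 10132 other genes that passed the background threshold on every array, the nearest profiles to Irf8 were those of Lrmp (0.15), AA414768 (0.17), and Lpxn (0.17). Those nearest to Irf5 were Smim10l2a (0.16), the chemokine receptor Cxcr3 (0.21), and the myosin Myo1f (0.26). For Irf9 they were Sun1 (0.07), Il2rg, the common γ chain of cytokine receptors (0.09), and Eif3e (0.11), for Irf7 Lgals9 (0.10), Cd47 (0.11), and Prps1 (0.11), and for Irf1 Fli1 (0.06), Sptan1 (0.07), and Fam63b (0.07). Irf2 was nearest to Hn1, Zc3h15, and Trim24 (0.06 to 0.07) and Irf3 to Cdk9, Mdm2, and Pi4ka (0.04 each), but both members vary so little (RMS 0.16 and 0.07) that such values say little about shape. These are descriptions over 8 arrays that share slides and days.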

How the data were processed

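Of the arrays the authors made, 8 one-color Agilent arrays (4 cell types at d12 and d25) were analysed here, extracted with Agilent Feature Extraction 10.7.3.1, per the labels. They deposited background-corrected spot intensities (4 spots per probe) and a table of normalized intensities. Their steps were repeated from the spots. Spots with a software flag, beyond 1.42 times the interquartile range of the quartiles, or with a pixel CV above 0.5 were excluded, the rest averaged geometrically, quantile normalized, scaled to a 75th percentile of 1500, set to a floor of 20, and taken as log2. The result correlated with the deposited table at r = 0.999 on each array, but the brightest 1% were higher here by 0.51 (log2). A gene was read from its brightest probe and tested if 1 or more cell types had that probe well above background on both of their arrays. That left 15747 genes, after 16 with a missing value were dropped. Limma 3.58.1 (R 4.3.3) was fitted with cell type and day as terms (lmFit, eBayes; 3 residual degrees of freedom, 1.91 from the prior), two-sided, with Benjamini-Hochberg adjustment over all genes. The script was tested on simulated data.

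All d12 arrays lay on 1 slide, the naïve and TFH arrays of d25 on another, and those of Treg and TFR cells on another. Numbers of arrays limit the precision. The study's methods name a one-way analysis of variance with Tukey's test, which was not run here, limma with cell type alone being the nearest alternative. Members and gene lists were chosen with earlier results of these data known. Named were all members, in each list the 2 genes that rose most and the 2 that fell most among called genes measured above background in both cell types, of which the text gives a part, and for each member the 3 genes nearest in profile. Promoters come from RefSeq (GRCm38.p6), and probe positions are those of the files (NCBI37). The alternatives were 75th percentile scaling alone, normexp correction, the deposited table, no spot exclusion, no floor, no filter or a stricter filter on dim genes, slide for day, no day term, an intensity trend, the mean over probes, and leaving out each array.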

Additional observations from a re-analysis of the deposited data

How the results depend on the processing

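All 5 calls of TFH versus naïve CD4 T cells held under all 19 alternatives, as did those of Irf1 and Irf9 in TFR versus Treg cells. With slide in place of day, 0 members were called in TFR versus TFH and 0 in Treg versus naïve CD4 T cells, and 2 of 21 neighbour steps (8 as reported). Without the filter on dim genes, 3 members were called in TFR versus Treg and 1 in Treg versus naïve CD4 T cells (Irf9, in place of Irf5 and Irf8), and 4 neighbour steps; in TFR versus TFH cells the count stayed at 2, with Irf3 in place of Irf5. Scaling of the 75th percentile alone left 1 call in TFR versus TFH cells. An intensity trend added 1 call for the follicular change (Irf8) and 2 for d25 versus d12 (Irf1 and Irf9). Without the day term, which serves as the replicate block here, TFR versus TFH cells had 1 call, and the other comparisons between cell types kept their counts (5, 5, and 2); with day removed or replaced by slide, d25 versus d12 has no value. Leaving out 1 array at a time gave 5 to 5 calls in TFH versus naïve CD4 T cells, 3 to 5 in TFR versus Treg, 0 to 1 in TFR versus TFH, and 0 to 1 in Treg versus naïve CD4 T cells, 0 for the follicular change and for d25 versus d12, and 4 to 4 neighbour steps; these fits have fewer residual degrees of freedom. Only differences that were not called changed sign. Under 75th percentile scaling these were Irf2 (-0.017) and Irf3 (-0.044) in TFH versus naïve CD4 T cells, Irf1 in the follicular change (0.045), and Irf3 in d25 versus d12 (-0.057). Irf5 turned in d25 versus d12 with normexp (0.020) and in the follicular change with the deposited table (-0.0069), and Irf2 in TFR versus TFH with slide (-0.11). Over the fits without 1 array, Irf2 ranged from -0.23 to 0.29 (TFH versus naïve), from -0.21 to 0.31 (TFR versus TFH), from -0.49 to 0.030 (follicular change), and from -0.0048 to 0.19 (d25 versus d12), Irf5 from -0.35 to 0.51 (follicular change) and from -0.16 to 0.17 (d25 versus d12), Irf7 from -0.010 to 0.21 (Treg versus naïve), Irf1 from -0.12 to 0.0049 (follicular change), and Irf8 from -0.010 to 0.15 (d25 versus d12). The counts of called list genes also moved, between TFH and naïve cells from 8 to 14 for upstream genes, 4 to 8 for receptors and Jak-Stat, 6 to 13 for antigen processing and GTPases, and 3 to 7 for cofactors, and between TFR and Treg cells from 1 to 7, 2 to 8, 7 to 16, and 1 to 6. The cause of these changes was not tested.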
